A study of Mus musculus with 4 samples.

Results

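The contrast described here set the late arrays of a fear conditioning time course (4 and 6 h after the last shock) against its early arrays (1 and 2 h). For each spot, the mean of the log ratios at 1 and 2 h was subtracted from the mean at 4 and 6 h, after each array had been centred on its median. Spots were taken if the deposited table held a measured ratio on all 4 arrays and the platform annotation gave them 1 gene symbol. Of the 16281 spots in the table, 10042 met both conditions, and they represented 8465 genes.

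RNA came from the CA1 field of the hippocampus of young male C57BL/6J mice. On each array, mice given MK-801 alone (MK, the green Cyanine-3 channel) were set against mice given MK-801 and then conditioned (MK C+S, the red Cyanine-5 channel). MK-801 is an open-channel blocker of NMDA receptors, and both groups carried it, so no array held drug-free tissue. The dose is labelled as 300 µg per g of body weight. MK C+S mice were injected 1 h before conditioning, which paired 2 min in an unfamiliar context with a foot shock of 1 s at 0.5 mA and was run 3 times. Each time was measured on 1 array, with no dye swap and no replicate. No source used here gives the number of animals behind an array. A positive log ratio is likely higher in MK C+S than in MK, but the table states neither the direction nor the log base, which was taken as 10. If the direction were the opposite, every sign given here would turn. A dye effect that is the same on all arrays drops out of late minus early, whereas one that differs between arrays does not. Because the values are ratios of bulk RNA, fewer cells of a type and less RNA per cell cannot be told apart, and the labelled CA1 tissue could not be checked against absolute marker levels.

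Cytosolic ribosomes carry out translation, and their proteins are encoded by many unlinked genes whose messages commonly begin with an oligopyrimidine tract, through which growth signals act on their translation. The respiratory chain and ATP synthase supply most of the ATP that neurons spend on ion pumping and synaptic transmission, and their subunits are nuclear genes in large part, made alongside the mitochondrial ribosome. Contextual fear memory depends on the hippocampus, and in CA1 neurons synaptic activity induces immediate early transcription factors first and effector genes afterwards. NMDA receptor block impairs the formation of this memory.

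The starts of the ribosomal protein genes described singly below are shown. They were the 4 of each subunit with the largest absolute difference among spots with sides apart. Each run covers 30 bases in transcript direction, 10 before the RefSeq start site and 20 from it on (GRCm38.p6). Capitals mark a C within 5 bases of the start, on either side, that is followed by at least 4 pyrimidines (C or T).
Rpl35a, chr16:33056472-33056501, plus strand: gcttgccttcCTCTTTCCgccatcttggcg
Rpl22, chr4:152325716-152325745, plus strand: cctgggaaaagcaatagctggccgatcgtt
Rpl19, chr11:98026700-98026729, plus strand: aaacgCCCTCactgcgcatgtgcgccgcgg
Rps27l, chr9:66946076-66946105, plus strand: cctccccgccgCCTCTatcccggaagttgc
Rps18, chr17:33955646-33955675, minus strand: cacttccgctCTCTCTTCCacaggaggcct
Fau, chr19:6057937-6057966, plus strand: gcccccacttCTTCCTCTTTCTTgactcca
The sequence of Rpl22 held no such tract in this window. In Rpl19 the marked run lies wholly before the annotated start, so it is not part of that transcript as annotated. The counts below use the same rule and can include such runs. Promoters of Rpl8 and Rps20 were not in the table used. The table held 3 promoters for Rpl35a and 2 each for Rpl22, Rpl19 and Rps27l. Of several, the first with a marked run was taken, so such runs are likelier in the sequences shown than over all promoters of these genes. The tract was present in 26 of 67 promoters of cytosolic ribosomal protein genes (38.8%), from 55 of the 67 genes on the array. It was present in 20.3% of promoters of mitochondrial ribosomal genes and in 18.3% of all 32851 promoters in the table. The share was not particular to ribosomal genes. It was 40% for glutamate receptors (4 of 10), 36.4% for collagens, laminins and integrins (20 of 55) and 35.3% for ATP synthase (6 of 17). Cholesterol synthesis genes had 0 of 17. These matches describe the letters only, and no array value was used to find them.

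The centred ratios of the 10042 spots had an SD of 0.193 and 0.173 on the early arrays and of 0.181 at 4 h and 0.278 at 6 h, so the 6 h array was the widest. Exact zeros, which were read as not measured, made up 22.7% of all spots at 1 h against 9.34% at 2 h and 7.39% at 4 h, with 6 h about as 2 h. Across spots, the arrays of a side correlated at a Pearson r of 0.216 (1 and 2 h) and 0.319 (4 and 6 h). The 2 h array correlated with the 4 h array at 0.346 and with the 6 h array at 0.208, whereas the 1 h array was near 0 with both late arrays (0.025 and -0.044). The 2 h array was thus as close to the late arrays as to its own side. These correlations are over spots, which are not replicates, and 2 arrays against 2 cannot give a two-sided exact permutation p under 0.333.

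In limma, with the difference between the times of a side as the error, 0 of 10042 spots passed an adjusted p of 0.05 (Benjamini-Hochberg over the 11488 spots measured on all arrays). The share called was 0%, and the lowest adjusted p was 0.657. At an unadjusted p under 0.05 there were 720 spots (7.17%), 219 higher late and 501 lower late. The values that follow therefore describe these 4 arrays, and no single spot or list is claimed as changed. The median late minus early over all spots was -0.021, with 4501 spots above 0 (44.8%) and 5541 below 0 (55.2%). Both late values lay above both early values in 1694 spots (16.9%), and both lay below in 2361 (23.5%). These 4055 spots (40.4%) are called the spots with sides apart. A difference of 2-fold or more was found for 481 spots higher late (4.79%) and 972 lower late (9.68%). The surplus of lower values depended on some of the settings. Of spots past 2-fold, 33.1% were higher late, against 49.1% after quantile normalization, 46.8% with exact zeros kept as a ratio of 1 and 42.8% without the 6 h array. It was 32.0% with no centring and 34.9% with the arrays scaled to one spread, and 373 were higher and 723 lower with a running median removed. Of spots with sides apart, 41.8% were higher late, whereas after quantile normalization 2021 were higher and 1939 lower.

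The 10042 spots were read through 51 lists of genes, which held 1632 of them (16.3%). The median late minus early was above 0 for 26 lists and above the all-spot median for 34. In 11 of the 51 lists both late array medians lay above both early medians, and in 13 both lay below. Over all single spots the shares apart were 16.9% and 23.5%. Gaps between the sides were thus not rare on these arrays, and the number of lists apart was not tested. Lists of the protein synthesis machinery and of mitochondrial energy production were among those with late medians above, and lists of tRNA synthetases, chaperonin subunits, skin and nose genes and CA1 neurons among those with late medians below.

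**Figure D1:**
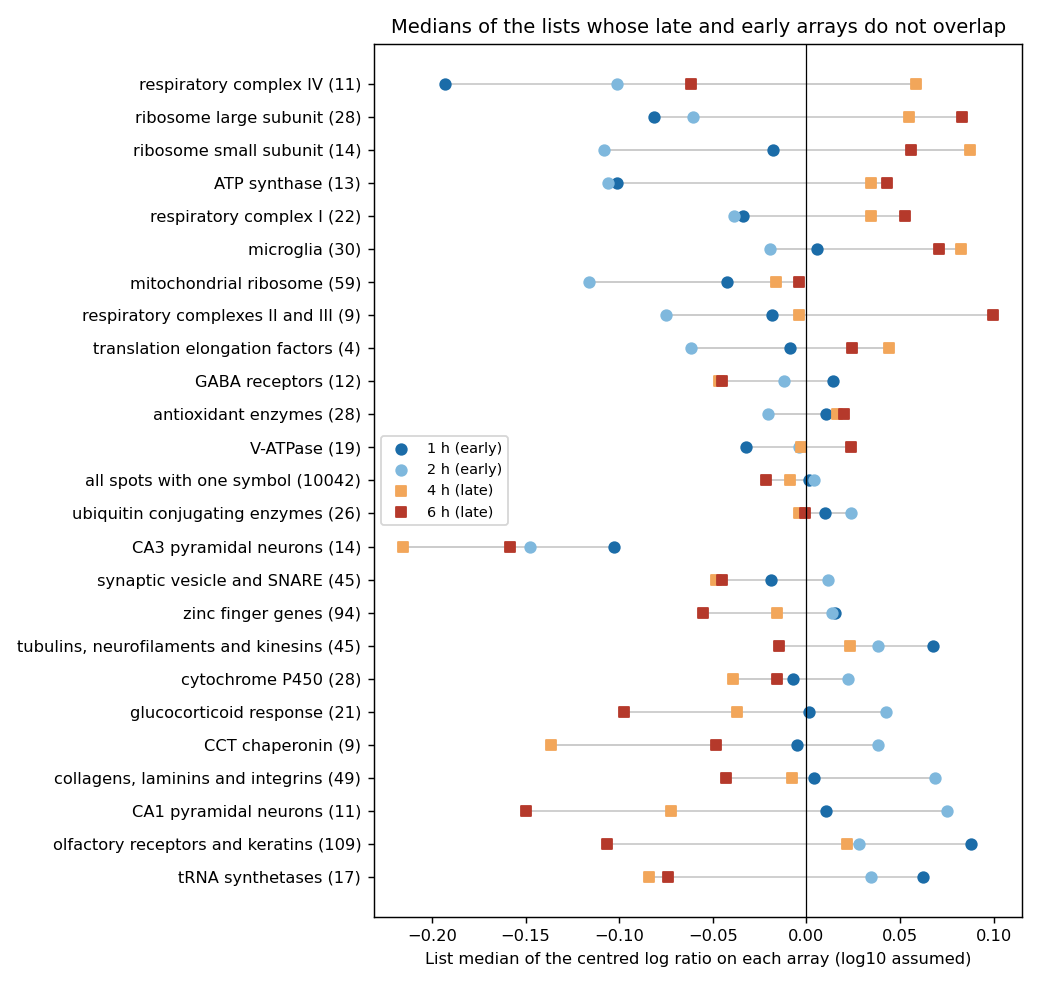
Median centred log ratio (log10 assumed) of each list on the 1, 2, 4 and 6 h arrays, for the lists whose late (squares) and early (circles) medians do not overlap and for all 10042 spots, with the number of spots in parentheses and lists ordered by their median late minus early. Ribosomal, respiratory complex I and ATP synthase medians passed from below 0 early to above 0 late, and tRNA synthetase and CA1 medians from above 0 to below 0.

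Proteins of the cytosolic ribosome had higher log ratios late than early. Of 67 genes on the array, 42 were measured on all 4 arrays, each by 1 spot, and 36 of these 42 had a late minus early above 0. Their median was 0.131, against -0.021 over all spots. Sides were apart with late higher in 22 (52.4%) and with late lower in 2 (4.76%), where the shares over all spots were 16.9% and 23.5%. At an unadjusted limma p under 0.05 there were 6 higher and 1 lower of the 42, where all 10042 spots held 219 higher and 501 lower. After adjustment 0 passed. In the large subunit (28 spots), the list medians were -0.082 and -0.061 early and 0.055 and 0.083 late. In the small subunit (14 spots), they were -0.018 and -0.108 early and 0.087 and 0.056 late. The number of the 42 spots above 0 was 10 and 12 on the early arrays and 28 and 29 on the late arrays, so the difference was seen between each early and each late array. The median of the large subunit kept its sign under all 12 alternatives (0.074 to 0.16), as did that of the small subunit (0.091 to 0.21).

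Rpl22, a large subunit protein, had log ratios of -0.32 and -0.24 on the early arrays and 0.32 and 0.13 on the late arrays, a late minus early of 0.50 (limma SE 0.12). Both late values were positive and both early values negative, and the difference corresponds to 3.18-fold. Rpl19, of the same subunit, had -0.15 and -0.30 early and 0.24 and 0.094 late, a difference of 0.39 (SE 0.12). Rpl8, which sits near the peptidyl transferase centre, had -0.10 and -0.28 early and 0.094 and 0.19 late, a difference of 0.33 (SE 0.12). Each of these changed sign between the sides, with the 4 h array the higher of the late pair for Rpl22 and Rpl19 and the 6 h array for Rpl8. The largest difference, that of Rpl35a at 0.63 (SE 0.30), came mainly from 1 array. Its values were -0.20 and -0.19 early, 0.91 at 4 h and -0.042 at 6 h. Without the large value at 4 h, its late side would lie just above the early side.

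Among small subunit genes, Rps18 had -0.0054 and -0.24 early and 0.24 and 0.11 late, a difference of 0.30 (SE 0.13). Rps27l, an inducible paralog of Rps27, had -0.14 and -0.25 early and 0.11 and 0.14 late, a difference of 0.32 (SE 0.11). Fau, which encodes a ubiquitin-like protein fused to ribosomal protein S30, had -0.16 and -0.11 early and 0.12 and 0.056 late, a difference of 0.22 (SE 0.11). In each of these 3 spots the early arrays were below 0 and the late arrays above it. Rps20 ran the other way, at 0.070 and -0.42 early and -0.54 and -0.79 late, a difference of -0.49 (SE 0.19). Rpl4 (-0.12) was the other spot of the 42 with both late values below both early values. Ribosomal protein genes have many processed pseudogenes, and how specific these spots are was not tested.

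**Figure D2:**
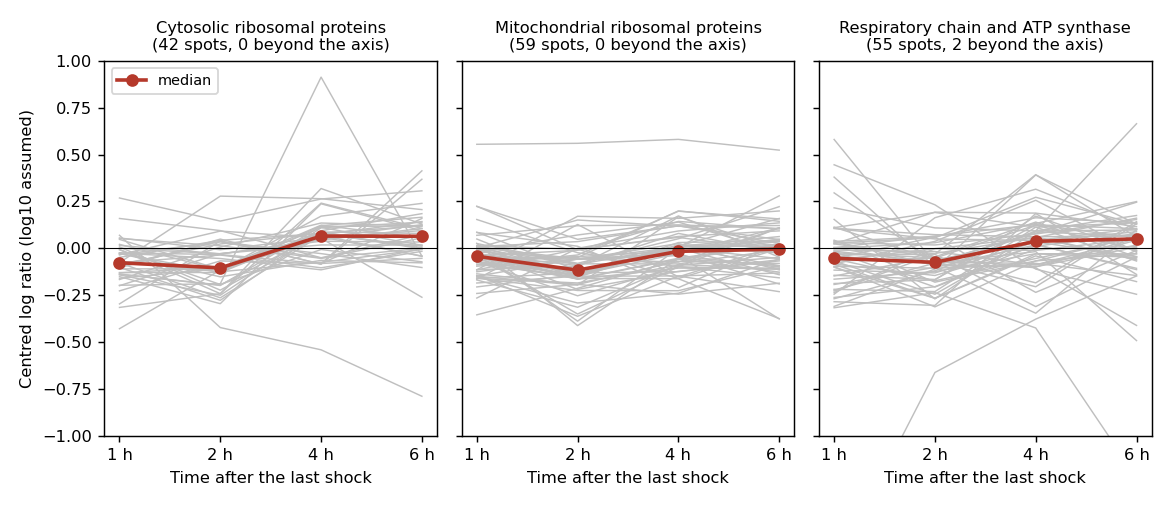
Centred log ratio (log10 assumed) against hours after the last shock for the 42 spots of cytosolic ribosomal proteins, the 59 of mitochondrial ribosomal proteins and the 55 of the respiratory chain and ATP synthase, each grey line a spot and the red line the list median. The medians were -0.077, -0.10, 0.065 and 0.064 in the first panel, -0.042, -0.12, -0.016 and -0.0041 in the second and -0.053, -0.075, 0.038 and 0.050 in the third, where 2 spots run beyond the axis.

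The mitochondrial ribosome, which makes the few respiratory subunits encoded in mitochondrial DNA, showed the same direction with smaller values. Of its 59 spots, 46 had a late minus early above 0, and the median was 0.053. Sides were apart with late higher in 24 (40.7%) and late lower in 1 (1.69%), against 16.9% and 23.5% over all spots. Its array medians were -0.042 and -0.12 early and -0.016 and -0.0041 late, so the late medians were nearer 0 and still below it. No member reached 2-fold, and values ran from -0.17 to 0.26. Mrpl33, of the large mitochondrial subunit, had -0.21 and -0.14 early and 0.013 and 0.16 late, a difference of 0.26 (SE 0.11). Mrpl30, of the same subunit, had -0.35 and -0.21 early and -0.059 and 0.019 late, also a difference of 0.26 (SE 0.11). Mrps9, of the small subunit, had -0.15 and -0.20 early and 0.17 and -0.0041 late, a difference of 0.25 (SE 0.12). The sides did not overlap in any of these 3 spots. A second spot of Mrps33 gave -0.011 where the first gave 0.25, so its higher value was seen in 1 spot alone.

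Subunits of the respiratory chain and ATP synthase were measured by 55 spots. Their median late minus early was 0.115, with 38 spots above 0 and 17 below. Sides were apart with late higher in 26 (47.3%) and late lower in 6 (10.9%), against 16.9% and 23.5% over all spots. Array medians of the whole set were -0.053 and -0.075 early and 0.038 and 0.050 late. By complex, the median difference was 0.095 for complex I (22 spots), which takes electrons from NADH, and 0.043 for complexes II and III with cytochrome c (9 spots). It was 0.16 for complex IV (11 spots), which passes electrons to oxygen, and 0.12 for ATP synthase (13 spots). The first 3 kept their sign under all 12 alternatives. The median of ATP synthase was -0.0021 after a running median over 51 neighbouring spots had been removed from each array.

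In complex I, Ndufc1 had -0.23 and -0.031 early and 0.39 and 0.060 late, a difference of 0.36 (SE 0.16). Ndufa1 had -0.19 and -0.17 early and 0.17 and -0.016 late, a difference of 0.26 (SE 0.12). Ndufa5 had -0.22 and -0.079 early and 0.088 and 0.065 late, a difference of 0.23 (SE 0.11). These are accessory subunits, and their early values were all negative. Ndufb4, another accessory subunit, ran the other way, at 0.45 and 0.23 early and -0.11 and -0.25 late, a difference of -0.52 (SE 0.13). It had the largest absolute difference of the 22 complex I spots.

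Sdhc, a membrane anchor of complex II, had -0.14 and -0.17 early and 0.13 and 0.11 late, a difference of 0.27 (SE 0.10). Sdhb, its iron-sulfur subunit, had -0.099 and -0.31 early and -0.067 and 0.063 late, a difference of 0.20 (SE 0.13). Cyc1, the cytochrome c1 of complex III, had -0.035 and -0.032 early and -0.31 and -0.046 late, a difference of -0.14 (SE 0.13). Complex II spots were thus higher late, and this catalytic subunit of complex III was lower late through the 4 h array. Cox4i1, a complex IV subunit, had -0.27 and -0.12 early and 0.093 and 0.098 late, a difference of 0.29 (SE 0.11). Cox7a2 had -0.26 and -0.20 early and 0.021 and -0.11 late, a difference of 0.19 (SE 0.11). Both spots of Cox7a1, a subunit best known from heart and muscle, had differences above 0 (0.32 and 0.44), with sides apart in the first only. Cox6a2, also a muscle form, had a difference of -0.22 (SE 0.14).

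In ATP synthase, Atp5k had -0.31 and -0.11 early and 0.39 and 0.13 late, a difference of 0.47 (SE 0.14). Atp5e had -0.22 and -0.23 early and 0.11 and -0.068 late, a difference of 0.25 (SE 0.12). The sides were apart in both, with 4 h the highest array. Atp5md had -0.32 and -0.24 early and -0.42 and -1.22 late, a difference of -0.55 (SE 0.26), which rested on 6 h. The spots of Atp5j disagreed, at 0.92 and -0.0044, and the first belongs to the shared course described further on. Without it the list median was 0.10.

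The promoters of Atp5k and Atp5g2 are shown because they are the ATP synthase genes that hold a match to the NRF1 motif, which reads the same on both strands. NRF1 is a transcription factor known for activating genes of the respiratory chain. Each run covers 40 bases in transcript direction (GRCm38.p6), and capitals mark the 10-letter motif searched, which begins at -50 in Atp5k and -42 in Atp5g2 relative to the start site.
Atp5k, chr5:108434425-108434464, minus strand: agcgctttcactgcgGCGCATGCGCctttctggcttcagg
Atp5g2, chr15:102671065-102671104, minus strand: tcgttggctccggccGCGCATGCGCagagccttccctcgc
Atp5g2, a membrane rotor subunit, had -0.15 and -0.046 early and 0.14 and -0.046 late, a difference of 0.14. The other motif holders of these lists that were measured on all arrays had differences near 0, at -0.028 for Uqcrc1, -0.053 for Mrpl9, 0.043 for Mrpl32, -0.0090 and 0.027 for the spots of Mrpl39 and 0.0013 for Rpl10a. The motif was held by 5 of 59 promoters of respiratory chain and ATP synthase genes (8.47%), by 3 of 59 of the mitochondrial ribosome (5.08%) and by 0.971% of all promoters. The cyclic AMP response element TGACGTCA, which CREB binds, was held by 5 of the 59 respiratory promoters (8.47%) and by 1.79% of all promoters. These were 3 of 25 promoters of complex I and 2 of 6 of complexes II and III. Complex IV (0 of 11) and ATP synthase (0 of 17) had none. A match is not evidence of binding.

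Other lists around translation did not share one direction. Elongation factors (4 spots) had a median difference of 0.038, with sides apart in 0 of 4. Initiation factors (31 spots) had a median of -0.027, with 8 spots apart higher (25.8%, against 16.9%) and 9 apart lower (29.0%, against 23.5%), and it was 0.017 without 4 h. Eif4a1, the RNA helicase that unwinds leaders, had -0.26 and -0.076 early and 0.38 and 0.24 late, a difference of 0.48 (SE 0.12). Eif2s3y, the Y-linked form of an eIF2 subunit, had 0.093 and 0.18 early and -0.25 and -0.29 late, a difference of -0.40 (SE 0.11), and its other spot gave -0.20. Among the spots of this list with sides apart, these 2 lay at opposite ends. The lowest difference of the whole list was -0.68.

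Aminoacyl-tRNA synthetases, which load amino acids onto tRNAs, had lower log ratios late. Of 17 spots, 14 had a late minus early below 0, with a median of -0.10. Sides were apart with late lower in 7 (41.2%, against 23.5% over all spots) and with late higher in 0. The array medians were 0.063 and 0.034 early and -0.084 and -0.074 late, and the sign held under all 12 alternatives (-0.13 to -0.077). Qars, the glutaminyl enzyme, had 0.063 and 0.20 early and -0.27 on both late arrays, a difference of -0.40 (SE 0.11), or 2.52-fold. Hars2, the mitochondrial histidyl enzyme, had 0.14 on both early arrays and -0.082 and -0.43 late, a difference of -0.39 (SE 0.15). Nars, the asparaginyl enzyme, had 0.088 and -0.031 early and -0.28 and -0.074 late, a difference of -0.20 (SE 0.13). Lars, the leucyl enzyme, had 0.067 and -0.11 early and -0.26 and -0.13 late, a difference of -0.17 (SE 0.12). For Qars and Hars2 the sides lay on opposite sides of 0, and for Nars and Lars 1 early array was already negative.

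The CCT chaperonin, a ring that folds actin and tubulin, had a late minus early below 0 in 8 of 9 spots, with a median of -0.086. Sides were apart with late lower in 5 of 9 (55.6%, against 23.5%). The medians were -0.0050 and 0.038 early and -0.14 and -0.048 late. Cct8 had 0.10 and 0.038 early and -0.23 and -0.044 late, a difference of -0.21 (SE 0.12). Cct4 had 0.039 and -0.055 early and -0.14 and -0.099 late, a difference of -0.11 (SE 0.11). Cct2 had -0.037 and 0.058 early and -0.11 and -0.055 late, a difference of -0.096 (SE 0.11). Each of these lay lowest at 4 h, and the differences of Cct4 and Cct2 were about the size of their SE. Cct6b, a testis form, had a larger difference, -0.34 (SE 0.16).

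Heat shock proteins of the Hsp70, Hsp90 and small families (21 spots) had a median of -0.078, with 7 apart lower (33.3%, against 23.5%) and 3 apart higher (14.3%, against 16.9%), and array medians that overlapped between the sides. The median was 0.013 without 2 h and -0.16 without 1 h. Hsp90aa1, the inducible cytosolic Hsp90, had 0.043 and 0.30 early and -0.10 and -0.077 late, a difference of -0.26 (SE 0.13), and another spot, not measured at 1 h, had 0.26, -0.053 and -0.092. Hsph1, a nucleotide exchange factor for Hsp70, had 0.11 and 0.22 early and 0.0097 and -0.18 late, a difference of -0.25 (SE 0.12). Both were highest at 2 h. Hsp40 co-chaperones (34 spots) had a median of -0.015, the proteasome core 0.034 (17 spots), its regulatory particle -0.0017 (24 spots) and ubiquitin conjugating enzymes -0.025 (26 spots). Those 4 lists did not keep one sign over the alternatives either.

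Immediate early transcription factors, the first genes that neuronal activity induces, did not separate by side. Their 25 spots had a median difference of -0.0070, with 3 apart higher (12%, against 16.9%) and 2 apart lower (8%, against 23.5%). The medians were -0.087 and 0.050 early and 0.029 and -0.0046 late, so the 1 h array stood lowest and the 2 h array highest within the early side. Fos, a subunit of AP-1, had -0.061, 0.26, -0.11 and 0.012 over the 4 times at one spot and -0.020, 0.046, 0.0024 and -0.0046 at the other. Egr1, a zinc finger factor, had -0.44, 0.31, -0.0080 and -0.29. Its early arrays enclosed its late arrays, and its difference was -0.080 (SE 0.26). Junb (0.085, SE 0.13) and Nr4a1 (-0.044, SE 0.10) also had differences below their SE. Nr4a1 was still 1 of the 2 spots apart lower, at 0.057 and 0.090 early and 0.029 and 0.030 late. Jund, another AP-1 subunit, had -0.27 and -0.26 early and 0.39 and -0.075 late, a difference of 0.42 (SE 0.17). Klf10 had -0.24 and -0.0024 early and 0.36 and 0.012 late, a difference of 0.31 (SE 0.16). Jund and Klf10 had sides apart with 4 h highest, although another spot of Klf10, not measured at 1 h, had -0.12, -0.062 and 0.24 at 2, 4 and 6 h. Btg2, an antiproliferative gene, was the other spot apart lower. It had 0.022 and 0.050 early and -0.25 and -0.14 late, a difference of -0.23 (SE 0.11).

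Effector genes regulated by activity (33 spots) had a median of 0.034, with 8 apart higher (24.2%, against 16.9%) and 5 apart lower (15.2%, against 23.5%). The median ran from -0.025 without 1 h to 0.13 without 2 h. Arc, which acts in the removal of AMPA receptors from synapses, had -0.19 and 0.38 early and 0.52 and 0.18 late, a difference of 0.26 (SE 0.22) with overlapping sides. Gem, a small GTPase that inhibits calcium channels, had -0.43 and -0.082 early and 0.020 and 0.36 late, a difference of 0.45 (SE 0.18), while its other spot gave -0.041. Plk2, a kinase of synaptic scaling, had -0.16 and -0.10 early and 0.13 and 0.30 late, a difference of 0.34 (SE 0.12), and its other spot gave 0.15. Postsynaptic scaffold genes (25 spots) had a median of 0.030, with 6 apart higher (24%, against 16.9%) and 2 apart lower (8%, against 23.5%), and the median was -0.023 without 4 h. Nrgn, a calmodulin-binding postsynaptic protein, had -0.49 and -0.19 early and 0.084 and 0.0061 late, a difference of 0.39 (SE 0.14). Dlg4, the scaffold PSD-95, had -0.28 and 0.014 early and 0.15 and 0.024 late, a difference of 0.22 (SE 0.14), and another spot, not measured at 1 h, had -0.046, 0.12 and 0.13. The 1 h array was the lowest of the 4 in the spot of each gene given in full.

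Genes that glucocorticoids induce (21 spots) had a median of -0.068, with 14 below 0. Their array medians were 0.0012 and 0.042 early and -0.037 and -0.098 late. Tsc22d3, a glucocorticoid-induced leucine zipper, had 0.30 and 0.31 early and -0.074 and 0.11 late, a difference of -0.29 (SE 0.12). Plin4, a lipid droplet protein, had 0.19 and 0.13 early and -0.084 and -0.34 late, a difference of -0.37 (SE 0.13). Mt2, a metallothionein, ran against these, at -0.13 and 0.077 early and 0.26 and 0.39 late, a difference of 0.35 (SE 0.13). The sides were apart in all 3 of these spots, and 6 of the 21 were apart lower (28.6%, against 23.5%).

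Marker lists of neurons showed lower log ratios late for CA1. Of 11 spots of CA1 pyramidal markers, 9 had a difference below 0, with a median of -0.10. The medians were 0.010 and 0.075 early and -0.073 and -0.15 late. Sides were apart lower in 6 (54.5%, against 23.5%) and apart higher in 0, but the median was 0.0035 after removal of the running median, and -0.16 to -0.065 with 1 array left out. Kcnh3, a potassium channel, had -0.017 and 0.077 early and -0.14 and -0.25 late, a difference of -0.23 (SE 0.11). A second spot gave -0.067, and another, not measured at 1 h, ran the other way with -0.24, -0.0065 and 0.40 at 2, 4 and 6 h. Crym, a thyroid hormone binding protein, had 0.010 and 0.083 early and -0.018 and -0.15 late, a difference of -0.13 (SE 0.11). Neurod6, a transcription factor of pyramidal neurons, had -0.011 and -0.24 early and -0.37 and -0.26 late, a difference of -0.19 (SE 0.13). Lefty1 had a difference of -0.21 (SE 0.11). These markers were named because their sides were apart. Zbtb20 (0.19) and Ndst4 (0.066) had differences above 0 and Wfs1 had -0.0098, all with overlapping sides. The gap between the sides was small for Neurod6 and Crym.

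CA3 pyramidal markers (14 spots) had negative medians on every array, from -0.22 at 4 h to -0.10 at 1 h, and a median difference of -0.027 that turned to 0.016 after quantile normalization. Elavl2, an RNA-binding protein of that list, had 0.21 and -0.18 early and -0.55 and -0.44 late, a difference of -0.50 (SE 0.16). Dentate granule markers (12 spots) had a median of 0.056 with 10 above 0, and interneuron markers (24 spots) one of 0.0089. Neither kept its sign with 1 array left out (-0.0089 to 0.12 and -0.10 to 0.10). Calb2, the calretinin of some interneurons, had -0.62 and -0.21 early and 0.66 and 0.11 late, a difference of 0.80 (SE 0.23), or 6.27-fold, and its other spot gave 0.23. Markers of neighbouring fields thus stood on both sides of 0, and their part in the other results was not tested.

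Synaptic vesicle and SNARE genes (45 spots) had a median of -0.037, with 12 apart lower (26.7%, against 23.5%) and 3 apart higher (6.67%, against 16.9%). Tubulins, neurofilaments and kinesins (45 spots) had a median of -0.064. Kif1a, a motor for synaptic vesicle precursors, had -0.090 and 0.086 early and -0.37 and -0.35 late, a difference of -0.36 (SE 0.12). Stmn1, a tubulin-binding protein, had -0.11 and -0.052 early and 0.23 and 0.22 late, a difference of 0.31 (SE 0.11). Glutamate receptors (13 spots) had a median of -0.077 and GABA receptors (12 spots) one of 0.036. The glutamate receptor median ran from -0.17 without 4 h to 0.032 without 6 h, and that of GABA receptors stood above 0 although the array medians of the GABA list were lower late (-0.047 and -0.045) than early (0.014 and -0.012). Both spots of Cnr1, the CB1 cannabinoid receptor, were lower late, at -0.76 (SE 0.25) and -0.16 (SE 0.13). The first had 0.046 and 0.23 early, -0.25 at 4 h and its lowest value at 6 h, and the second 0.0042 and 0.069 early and -0.0041 and -0.24 late.

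Microglial and astrocyte markers had higher log ratios late. Microglial markers (30 spots) had a median difference of 0.064 with 10 apart higher (33.3%, against 16.9%), and array medians of 0.0057 and -0.019 early and 0.083 and 0.071 late. Astrocyte markers (28 spots) had a median of 0.055 with 20 above 0 and 7 apart higher (25%, against 16.9%), and their array medians overlapped between the sides. Both lists kept their sign under all 12 alternatives. Oligodendrocyte and myelin markers (23 spots) had a median of 0.055 with overlapping array medians, and it ran from -0.022 to 0.095 with 1 array left out, below 0 without 1 h and without 6 h. Both spots of Aif1, a microglial calcium-binding protein, were higher late, at 0.29 (SE 0.11) and 0.24, the second with -0.081 and -0.14 early and 0.17 and 0.082 late. C1qa, a complement subunit, had -0.18 and -0.27 early and 0.19 and -0.083 late, a difference of 0.27 (SE 0.13). Cd14 ran against them at -0.43 (SE 0.14).

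Aqp4, the astrocyte water channel, had -0.32 and -0.13 early and 0.32 and 0.014 late, a difference of 0.40 (SE 0.15). Glul, glutamine synthetase, had -0.12 and 0.15 early and 0.50 and 0.26 late, a difference of 0.36 (SE 0.15). Fabp7, a fatty acid binding protein, had -0.27 and 0.0032 early and 0.20 and 0.26 late, a difference of 0.36 (SE 0.13). The lowest of the 4 arrays was 1 h in each. The spots of Slc1a3, a glutamate transporter, disagreed at 0.32 and -0.12, and another, not measured at 1 h, had -0.64, -0.51 and -0.24. Cholesterol synthesis enzymes (14 spots) had a median of 0.11 with 13 above 0 and 5 apart higher (35.7%, against 16.9%), but the list medians overlapped, at -0.072 and 0.032 early and -0.014 and 0.091 late, and the median was 0.023 without 1 h and 0.062 without 6 h. Idi1 had a difference of 0.21 (SE 0.12), Mvd 0.22 (SE 0.15) and Sqle 0.17 (SE 0.14), each lowest at 1 h.

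Choroid plexus markers (16 spots) had a median of 0.45 at 1 h and -0.029, -0.0076 and -0.12 at 2, 4 and 6 h. Their median late minus early of -0.23 rested on the 1 h array, and leaving out 1 array gave -0.49 to 0.033. At 1 h, 12 of the 16 spots were above 0. Sides were apart lower in 4 (25%, against 23.5%) and apart higher in 2 (12.5%, against 16.9%). Folr1, a folate transporter of that epithelium, had 0.49 and 0.13 early and 0.044 and -0.20 late. Igf2 had 0.54 and 0.16 early and -0.12 and 0.073 late. The spots apart higher were 1 of Kl (0.76), at -1.91 at 1 h and of the shared course described further on, and 1 of Ace (0.35). Other spots of Kl gave -0.26 and -0.37, and those of Ace 0.057 and -0.045. The high median of the choroid plexus list at 1 h stands beside every late minus early value given here, and its part in them was not tested. Endothelial and mural markers (29 spots) had a median of 0.012, which was -0.048 without 6 h and 0.13 without 4 h, and were spread from -0.86 to 0.57. Sox17, an endothelial transcription factor, lay at one end with 0.14 and 0.81 early and -0.27 and -0.51 late, and Cldn5, a tight junction protein, at the other with -0.46 and -0.81 early and -0.13 and 0.0031 late. Pecam1, an adhesion molecule, had a difference of -0.51 (SE 0.17). Vascular spots thus did not move together.

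Genes of nose, hair and skin, which CA1 is not expected to express, had lower log ratios late. Olfactory receptors, keratins and other skin genes (109 spots) had a median of -0.10, with 33 apart lower (30.3%, against 23.5%) and 12 apart higher (11%, against 16.9%). There were 28 spots lower by 2-fold or more (9.68% over all spots) and 6 higher (4.79% over all). Their array medians were 0.088 and 0.028 early and 0.022 and -0.11 late, so the 6 h array was the lowest by far. Olfactory receptors alone (49 spots) had -0.15 and keratins and other skin genes alone (60 spots) -0.083. Lce1h, a protein of the cornified skin layer, had 0.18 and 0.095 early and -0.74 and -0.62 late, a difference of -0.82 (SE 0.11). Olfr1507 had 0.055 and 0.27 early and -0.29 and -0.84 late, a difference of -0.73 (SE 0.20). Krtap14, a hair keratin associated protein, was lower at each later time, at 0.99, 0.17, 0.021 and -0.70.

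Collagens, laminins and integrins (49 spots) had a median of -0.099 with 18 apart lower (36.7%, against 23.5%). Itga4, an integrin of leukocytes, had 0.43 and 0.015 early and -0.18 and -0.70 late, a difference of -0.66 (SE 0.22), but its other spot gave 0.23. Lama5, a basement membrane laminin, had 0.17 and 0.070 early and -0.34 and -0.60 late, a difference of -0.59 (SE 0.13). Zinc finger genes (94 spots) had a median of -0.061 with 31 apart lower (33.0%, against 23.5%) and 7 apart higher (7.45%, against 16.9%). Cytochrome P450 enzymes (28 spots) had a median of -0.065 with 10 apart lower (35.7%, against 23.5%). All 4 of these lists kept their sign under all 12 alternatives, and whether their genes were above background in this tissue cannot be seen from ratios. Zfp467 had 0.030 and 0.35 early and -0.35 and -0.49 late.

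**Figure D3:**
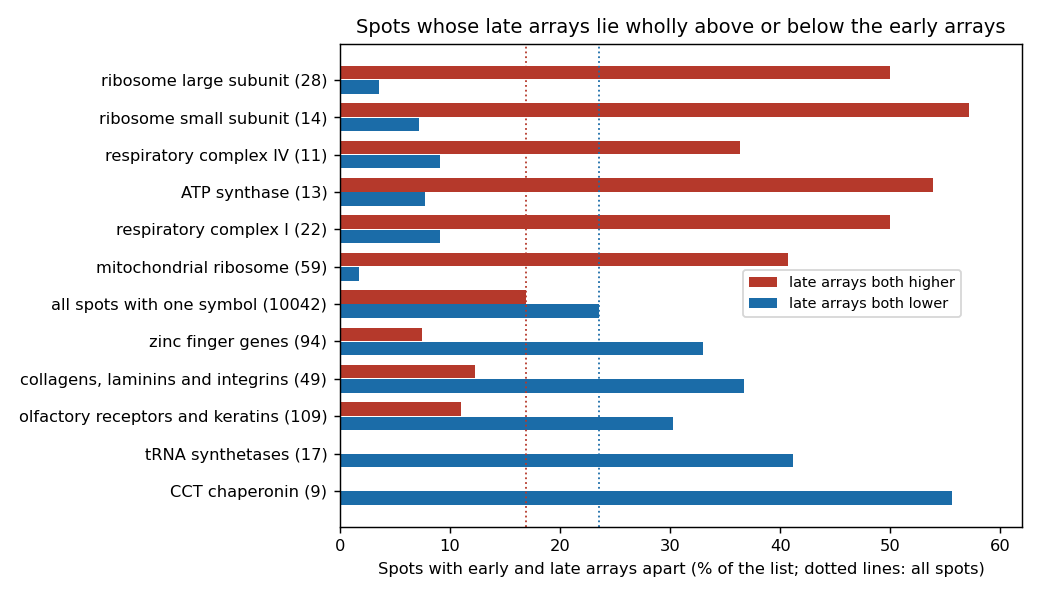
Percent of the spots of 11 selected lists whose late values both lie above (red) or both below (blue) the early values, with the number of spots in parentheses and dotted lines at the percent over all 10042 spots (16.9% and 23.5%). Both subunits of the cytosolic ribosome, complex I and ATP synthase had 50% or more of their spots on the higher side, and the CCT chaperonin had 55.6% on the lower side.

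The largest single differences came from genes of unrelated kinds. Slc10a2, an intestinal bile acid transporter, had the highest, 1.23 (SE 0.43), from -1.61 and -1.98 early and 0.12 and -1.24 late, where 3 of 4 arrays were strongly negative. Pip5k1a, a lipid kinase that makes PIP2, had -0.64 and -0.18 early and 0.91 and 0.58 late, a difference of 1.15 (SE 0.20) or 14.3-fold. Its other spots gave 0.080 and 0.056, so the value was not seen across the gene. Dll4, a Notch ligand, had -0.11 and -1.31 early and 0.13 and 0.27 late, and another spot, not measured at 6 h, had -0.34, -0.10 and 0.038.

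On the lower side, Plagl1, a zinc finger gene, had -0.35 and 0.49 early and -0.66 and -2.19 late, a difference of -1.49 (SE 0.53), and its other spot gave 0.10. Nova1, a neuronal splicing factor, had 0.0036 and -0.33 early and -0.54 and -2.12 late, and Lce1a2 had 0.054 and -0.16 early and -0.64 and -1.79 late. In these 3 spots the 6 h array was far below the others. Clcn7, a lysosomal chloride transporter, had -0.13 and 0.12 early and -1.17 and -0.97 late, a difference of -1.07 (SE 0.14). Its other spots, each measured on 3 arrays, ran the other way, with -0.57 at 1 h and 0.043 and 0.20 late at one and -0.26 at 2 h and -0.075 and 0.62 late at the other. Speer4d had -0.0019 and -0.30 early and -1.11 and -1.26 late, a difference of -1.03 (SE 0.14). Vamp1, a vesicle SNARE, had 0.017 and -0.10 early and -1.78 and -0.33 late, Stpg3 had 0.099 and 0.061 early and -1.41 and -0.50 late, and Klra7, a natural killer cell receptor, had 0.29 and 0.28 early, -0.43 at 6 h and a still lower value at 4 h, with a difference of -0.999 (SE 0.20). The late arrays were both low for Speer4d and the first spot of Clcn7, and 4 h was the lowest for Vamp1, Stpg3 and Klra7.

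By limma's moderated statistic the spots standing out included Tex45, with -0.24 and -0.16 early and 0.28 and 0.36 late, and on the lower side Pcsk5, a proprotein convertase, with 0.11 and 0.026 early and -0.62 and -0.65 late. Another spot of Pcsk5, not measured at 1 h, ran the other way, with -0.070, -0.069 and 0.58 at 2, 4 and 6 h. The lower side also included 3200001D21Rik, with 0.094 and -0.015 early and -0.79 and -0.76 late. In these the arrays of a side lay close together. None passed adjustment in limma.

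Of the 8 highest differences, 5 belonged to spots with nearly one time course. The rule for these took spots below -1 at 1 h that were nearer 0 at 2 h, nearer still at 4 and 6 h, and below 0 throughout. It sets the shape of the course in part. There were 10 such spots, named for Arf6, Ccnt1, Med22, Atp4a, Grk6, Atp5j, Snx3, Kl, Gabrr1 and Tmem165, and they were picked out after their values were seen. They ran from -1.91 to -1.16 at 1 h, -0.97 to -0.62 at 2 h, -0.74 to -0.19 at 4 h and -0.50 to -0.092 at 6 h. Grk6, a receptor kinase, had -1.74, -0.79, -0.50 and -0.11 and a difference of 0.96, and Ccnt1, a cyclin of transcription elongation, had -1.47, -0.97, -0.46 and -0.16 and one of 0.92. The 12 other spots of the same genes ran from -0.27 to 0.71 at 1 h. The other spots of Grk6 gave differences of 0.079 and 0.0069, that of Ccnt1 -0.23, that of Snx3 -0.14 and that of Atp4a -0.19. The other spot of Arf6 also rose, from -0.27 and -0.18 early to 0.078 and 0.72 late, a difference of 0.62. None of the other spots of these genes met the rule. Few spots could, as 15 of 10042 lay below -1 at 1 h.

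**Figure D4:**
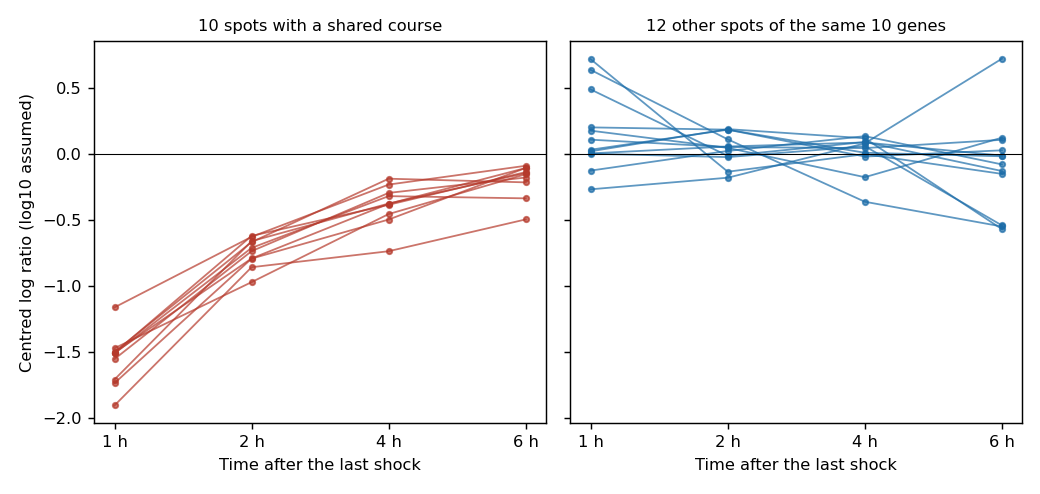
Centred log ratio (log10 assumed) against hours after the last shock for the 10 spots of the shared course and for the 12 other spots of the same genes. The first group lay between -1.91 and -1.16 at 1 h and the second between -0.27 and 0.71.

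Where a gene had several spots, they rarely gave the same difference. There were 1449 genes with 2 spots or more and 1780 pairs of spots of 1 gene, and late minus early correlated between the spots of a pair at a Spearman rho of 0.079 and a Pearson r of 0.016. The sign was shared by 971 pairs (54.6%). All spots of a gene were apart higher in 89 of the 1449 genes and apart lower in 61, where 16.9% and 23.5% of all single spots were apart. How many genes unrelated spots would give was not tested. These correlations describe pairs that share RNA and arrays. Most genes (7016) had 1 spot, so their values have no such check.

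Some genes had spots that gave one direction with sides apart. Ptn, the growth factor pleiotrophin, had -0.24 and -0.33 early and 0.38 and 0.24 late at one spot and -0.26 and -0.081 early and 0.094 and 0.47 late at the other, differences of 0.60 and 0.45. Arf5, a small GTPase of the Golgi, had -0.73 and -0.59 early and 0.51 and -0.14 late at one spot and -0.57 and -0.50 early and 0.33 and 0.019 late at the other. Its differences were 0.84 and 0.71, with 4 h the higher late array in both. Arf6, a GTPase of the plasma membrane, gave 0.62 and 0.73, the second from the shared course. Id2, an inhibitor of basic helix-loop-helix factors, had -0.25 and -0.21 early and 0.32 and -0.014 late at one spot and -0.38 and -0.39 early and 0.24 and -0.022 late at the other.

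On the lower side, Cyp8b1, a liver enzyme of bile acid synthesis, gave -0.48 and -0.43, with 0.22 and 0.13 early and -0.24 and -0.37 late at the first spot. Retnla, a secreted resistin-like protein, gave -0.45 and -0.42, with 0.38 and 0.24 early and -0.035 and -0.19 late at the second. Btn1a1, a milk fat protein, gave -0.48 and -0.43. The early values of both Cyp8b1 spots were positive and the late values negative.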

How the data were processed

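The values are log ratios per spot from 4 two-colour arrays of mouse CA1 RNA. The deposited table gives no log base, and log10 was assumed. No source used here gives the scanner, background correction or normalization the authors used, and no intensities or depths were used. Each deposited column had a median of 0. An exact 0 was read as not measured, and each array was centred on the median of its other spots. Of 16281 spots, 13738 were annotated to 1 symbol, 52 to several and 2491 to none. Columns were matched to the samples by their names, and 0 columns were unmatched.

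Late minus early was fitted with limma 3.58.1 (R 4.3.3), two-sided, on the 11488 spots measured on all 4 arrays, with Benjamini-Hochberg adjustment at 0.05. The 2 residual degrees of freedom hold the difference between the times of a side, which may be biological or technical. On simulated spots it called 98 of 100 shifted by 1 log10 unit, 16 of 100 shifted by 0.5 and 11 of 11288 unshifted. The simulated noise was normal, independent and of equal spread on the 4 arrays of a spot, with limma's moderated variances. The real 6 h array was wider than the others (SD 0.278), so these shares may not hold for the real spots. A 2-fold difference was 0.301 log10 units.

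The members and the lists were chosen with earlier results of these data known, so no list was tested. Named spots were the 8 highest and 8 lowest differences with sides apart, the 5 largest statistics in each direction, up to 4 of the largest such spots in each list, 8 genes whose spots agreed, and all spots of Fos, Egr1, Arc, Junb, Nr4a1 and Car1. The rule picked 233 spots, of which 121 are described. Other spots of genes described singly, Rpl4, Zbtb20, Ndst4, Wfs1, Ace, the NRF1 motif holders and the shared course were added after values were seen. Promoter sequences came from RefSeq. The cyclic AMP element, CArG box, NRF1 motif, E-box CACGTG and heat shock element were searched on both strands of 300-base promoters, the oligopyrimidine start on the transcript strand.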

Additional observations from a re-analysis of the deposited data

Results flagged for a closer look

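Results are listed here where both early values lay on one side of 0 and both late values on the other, so that the arrays of the early and late sides pointed in opposite directions. The difference between the sides was not tested beyond limma, which called 0 spots, and over all 10042 spots both late values lay above both early values in 16.9% and below in 23.5%. That measure asks for no change of sign, and the share of all spots that changed sign between the sides was not counted. Among the list medians, those that were negative early and positive late had a late minus early of 0.15 (large ribosomal subunit), 0.13 (small ribosomal subunit), 0.038 (translation elongation factors), 0.095 (respiratory complex I) and 0.12 (ATP synthase). Those that were positive early and negative late had -0.10 (tRNA synthetases), -0.025 (ubiquitin conjugating enzymes), -0.068 (glucocorticoid response), -0.061 (zinc finger genes), -0.099 (collagens, laminins and integrins) and -0.10 (CA1 pyramidal neurons).

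The naming rule picked 233 spots, of which 47 were negative early and positive late and 46 positive early and negative late. Most were picked because their sides were apart, so the selection in part sets these counts. Of the 121 of them described in the text, 28 were negative early and positive late. In ribosomes and translation these were Rpl22 at 0.50, Rpl19 at 0.39, Rpl8 at 0.33, Rps27l at 0.32, Rps18 at 0.30, Fau at 0.22, Mrpl33 at 0.26 and Eif4a1 at 0.48. In the respiratory chain and ATP synthase they were Ndufc1 at 0.36, Ndufa5 at 0.23, Sdhc at 0.27, Cox4i1 at 0.29 and Atp5k at 0.47. Of neuronal and activity-regulated genes they were Gem at 0.45, Klf10 at 0.31, Nrgn at 0.39, Plk2 at 0.34, Calb2 at 0.80 and Stmn1 at 0.31. Of glial and vascular genes they were Aif1 at 0.29, Aqp4 at 0.40 and Dll4 at 0.91. The others were Arf5 at 0.71, Arf6 at 0.62, Pip5k1a at 1.15, Tex45 at 0.51 and both spots of Ptn at 0.60 and 0.45.

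Another 27 of the 121 were positive early and negative late. In the protein synthesis, folding and respiratory lists these were Qars at -0.40, Hars2 at -0.39, Eif2s3y at -0.40, Cct8 at -0.21, Hsp90aa1 at -0.26 and Ndufb4 at -0.52. Of neuronal and glucocorticoid genes they were Crym at -0.13, Lefty1 at -0.21, Btg2 at -0.23, Plin4 at -0.37 and both spots of Cnr1 at -0.16 and -0.76. Of matrix, immune and vascular genes they were Itga4 at -0.66, Lama5 at -0.59, Cd14 at -0.43, Klra7 at -0.999, Pecam1 at -0.51 and Sox17 at -0.86. The others were Lce1h at -0.82, Olfr1507 at -0.73, Pcsk5 at -0.70, Stpg3 at -1.04, Zfp467 at -0.61, both spots of Cyp8b1 at -0.48 and -0.43 and both of Retnla at -0.45 and -0.42.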

How the results depend on the processing

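No paired analysis was possible because the labels give no replicate numbers and each time has 1 array. Of the 51 lists, 20 had a median of one sign under every alternative run. The log base and the direction of the ratio set the size and sign of every value, and signal over background was not used here. The cause of the shifts below was not tested unless the setting itself gives it. The number of spots called by limma was 0 under array weights, a robust prior, gene means, a fit on named spots only and each scaling, and 0 to 244 with 1 array left out (244 without 4 h and 4 without 6 h, where the lone late array is assumed to vary like the early pair). Spots past 2-fold numbered 2 higher and 10 lower with base 2, 20 and 71 with a natural log, 1291 and 2032 at 1.5-fold, and 104 and 327 at 3-fold. There were 1008 higher with exact zeros kept, and 318 higher over gene means. With 1 array left out they were 433 to 861 higher and 632 to 1503 lower. Spots with sides apart numbered 558 higher and 1023 lower at a gap of at least 0.1, and 2977 to 3315 and 3734 to 4062 with 1 array left out, where a side of 1 array makes overlap rarer.

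With 1 array left out, the median late minus early ran from 0.074 to 0.14 for the large ribosomal subunit, 0.024 to 0.077 for translation elongation factors, -0.13 to -0.084 for tRNA synthetases, 0.045 to 0.099 for mitochondrial ribosome, 0.081 to 0.096 for respiratory complex I, 0.078 to 0.12 for ATP synthase. It ran from -0.040 to 0.011 for ubiquitin conjugating enzymes, -0.025 to 0.066 for V-ATPase, -0.13 to -0.060 for glucocorticoid response genes, -0.034 to 0.039 for antioxidant enzymes, -0.0049 to 0.067 for GABA receptors, -0.061 to -0.044 for synaptic vesicle genes. It also ran from -0.067 to -0.019 for tubulins, neurofilaments and kinesins, -0.099 to -0.047 for cytochrome P450, 0.045 to 0.090 for microglial markers, -0.068 to -0.029 for CA3 markers, -0.16 to -0.065 for CA1 markers. With 1 value per gene, it was 0.13 for ATP synthase, 0.074 for V-ATPase, -0.13 for glucocorticoid response genes, 0.016 for antioxidant enzymes and 0.058 for GABA receptors. With the arrays scaled to one spread, it was 0.13 for the large ribosomal subunit, 0.14 for ATP synthase, -0.033 for ubiquitin conjugating enzymes and -0.11 for glucocorticoid response genes. With exact zeros kept as a ratio of 1, it was 0.078 for the large ribosomal subunit, -0.084 for tRNA synthetases, 0.062 for respiratory complex I, 0.039 for ATP synthase, 0.086 for GABA receptors, -0.036 for tubulins, neurofilaments and kinesins, -0.017 for collagens, laminins and integrins, -0.034 for cytochrome P450 and 0 for all spots. As a mean of the list, it was 0.068 for respiratory complex I, -0.036 for ubiquitin conjugating enzymes, -0.012 for antioxidant enzymes, 0.054 for GABA receptors, -0.075 for synaptic vesicle genes, -0.11 for zinc finger genes, -0.035 for cytochrome P450, 0.048 for microglial markers, -0.12 for CA3 markers and -0.033 for all spots. With spots measured on 1 array or more of each side, it was -0.079 for tRNA synthetases, 0.13 for ATP synthase, 0.16 for GABA receptors, 0.081 for microglial markers, 0.029 for CA3 markers and 0.00096 for all spots. After quantile normalization, it was -0.084 for tRNA synthetases, 0.12 for respiratory complex I, 0.15 for ATP synthase, -0.0082 for ubiquitin conjugating enzymes, 0.058 for V-ATPase, -0.11 for glucocorticoid response genes, 0.065 for antioxidant enzymes, 0.056 for GABA receptors, -0.0023 for synaptic vesicle genes, -0.042 for cytochrome P450, 0.016 for CA3 markers and 0.0039 for all spots. After removal of the running median over 51 spots, it was 0.13 for the large ribosomal subunit, 0.21 for the small ribosomal subunit, 0.072 for translation elongation factors, -0.077 for tRNA synthetases, 0.11 for respiratory complex I, -0.0021 for ATP synthase, 0.039 for ubiquitin conjugating enzymes, 0.0097 for V-ATPase, -0.11 for glucocorticoid response genes, 0.056 for antioxidant enzymes, -0.011 for tubulins, neurofilaments and kinesins, -0.033 for zinc finger genes, 0.098 for microglial markers and 0.0035 for CA1 markers. Without the 10 spots of the shared course, an alternative chosen after seeing the data, it was 0.10 for ATP synthase and 0.014 for GABA receptors.

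Of 121 named spots, 8 changed sign under an alternative and 16 passed limma's adjusted p of 0.05 with 1 late array left out. With 1 array left out, sign changes gave ranges of -0.025 to 0.54 for Arc (lowest without 1 h), -1.07 to 1.16 for Car1 (below 0 without 2 h and, at -0.67, without 6 h), -0.46 to 0.29 for Egr1 (above 0 without 2 h and, at 0.059, without 6 h) and -0.30 to 0.012 for one spot of Fos, the other reaching 0.019, both without 2 h. Junb reached -0.038 without 4 h. After removal of the running median the value was 0.0035 for Crym, 0.016 for Fos and 0.22 for Nr4a1, and after quantile normalization it was 0.0034 for Fos.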

Other observations

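Car1, an erythrocyte carbonic anhydrase, had log ratios of -0.42 and -2.66 early and -2.21 and -0.79 late. The middle times were far below the outer ones, and late minus early, at 0.043 (limma SE 0.79), held none of this course. Carbonic anhydrases as a list (9 spots) had a median of -0.11, with 5 spots apart lower (55.6%, against 23.5% over all spots) and 2 apart higher (22.2%, against 16.9%), and it was 0.0020 after removal of the running median. For antioxidant enzymes (28 spots) the median late minus early (0.036) and the mean (-0.012) differed in sign, and so they did for voltage-gated sodium and calcium channels (32 spots, 0.040 and -0.015). Glycolytic enzymes (35 spots) had a median of -0.0070, and clock genes (15 spots) one of -0.015.

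Motif matches in lists that did not separate by side were also counted. The CArG box, which serum response factor binds, was held by 5 of 26 promoters of immediate early transcription factors (19.2%) and by 1.63% of all promoters. The heat shock element was held by 4 of 19 promoters of the Hsp70, Hsp90 and small heat shock list (21.1%) and by 0.603% of all promoters. The E-box CACGTG was held by 5 of 22 promoters of clock genes (22.7%) and by 7.15% of all promoters. Its share was higher in some other lists, among them tRNA synthetases (3 of 9, 33.3%), V-ATPase (3 of 9, 33.3%) and translation initiation factors (9 of 34, 26.5%).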
